A study of Tuber melanosporum with 9 samples.

Results

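TmelDnmt1 (gene model GSTUMT00012206001) is 1 of the 2 putative DNA methyltransferases (DMTs) of the black truffle *Tuber melanosporum*. It was chosen by its identifier and is 1 of the 7496 genes in the count tables. It is described here over all 4 RNA libraries of the study, beside the methylation levels of the same conditions.

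The study sequenced bisulfite-treated DNA of 5 conditions and RNA of 4 of them, with 1 library per condition and assay. FB was a mature fruitbody collected in Auvergne whose strain is not stated, and FLM was free-living mycelium of the sequenced strain Mel28 on malt agar. The 5-aza experiment used Mel28 mycelium in liquid culture, kept in the dark at 23 °C, to which water (untreated) or 100 µM 5-azacytidine (5-aza, treated) was added every 5 days for 45 days, with harvest 24 h after the last addition. ECM, which has methylation data only, consisted of hazel root tips colonized by *T. melanosporum* and so also contained host cells. Stage, growth conditions and possibly strain vary together between FB and the cultured mycelia, and their parts in any difference cannot be told apart. FLM and the liquid cultures share stage and strain. They differ in medium, culture time and DNA extraction, whose parts cannot be told apart either. The tissue labels were not checked by marker genes, since no marker is paired with a gene identifier.

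DMTs add a methyl group to cytosine. In ascomycetes they fall into a DIM-2/DNMT1 group and a RID/Masc1 group, and TmelDnmt1 was placed by the study in the RID/Masc1 group and TmelDnmt2 in the DIM-2 group. RID of *Neurospora crassa* is needed for repeat-induced point mutation, and Masc1 of *Ascobolus immersus* for methylation induced premeiotically, both of which target repeated DNA before meiosis. 5-Aza is a cytosine analogue that traps DMTs once it has been built into DNA.

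TmelDnmt1 RNA was most abundant in the fruitbody, where it was 9.28-fold higher than in FLM and 5.90-fold higher than in untreated mycelium. It was 1.64-fold higher in 5-aza-treated than in untreated mycelium. Levels are given in CPM, the reads of a gene per 1000000 reads on genes of the library, and intervals are exact Poisson or binomial 95% intervals that cover counting error only, not variation between fruitbodies or cultures.

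In FB, 7906 reads fell on TmelDnmt1, which is 338 CPM (interval 330 to 345). In FLM there were 867 reads, or 36.4 CPM (34.0 to 38.9). Untreated mycelium had 1286 reads, or 57.3 CPM (54.2 to 60.5), and treated mycelium 2046 reads, or 93.8 CPM (89.8 to 98.0). The order was thus FB, treated, untreated and FLM, and no counting intervals of neighbours in this order overlapped. The order of the lowest pair depends on the scaling, since FLM reached 51.6 CPM and untreated mycelium 47.0 CPM with totals adjusted by the trimmed mean of M-values (TMM). The other neighbours kept their order under that scaling, with 366 CPM in FB and 74.6 CPM in treated mycelium. With bulk tissue, fewer cells that express the gene and less RNA per cell cannot be told apart.

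Among all 7496 genes, TmelDnmt1 ranked 468th in FB by CPM, with 93.8% of the genes below it. It ranked 2746th in treated mycelium, 3561st in FLM and 3957th in untreated mycelium, with 63.4%, 52.5% and 47.2% of the genes below it. It thus stood near the middle of the genes in all 3 mycelia and in the upper part in the fruitbody. TmelDnmt1 is a long gene of 3702 bp in the table of FB and FLM, and read counts grow with length. Per kb of that length its level was 91.3 CPM per kb in FB, 9.83 in FLM, 15.5 in untreated mycelium and 25.3 in treated mycelium. On this scale 82.6% of the genes were below it in FB, 29.7% in FLM, 24.5% in untreated mycelium and 34.4% in treated mycelium, so that it was below the median gene in each mycelium.

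The RNA depth was alike in all 4 libraries, with 21802480 to 23816308 reads on genes. The makeup of the libraries was not, since the 100 most abundant genes took 33.1% of the gene reads in FB and 34.8% in FLM but 23.1% in untreated and 24.0% in treated mycelium. Reads on repeats, which are outside these totals, numbered 6259633 in FB. They numbered 803186 in FLM, 1077125 in untreated and 793959 in treated mycelium. The median gene had a log2 ratio of 0.43 for FB over FLM, 0.04 for treated over untreated, -0.82 for FLM over untreated and -0.41 for FB over untreated. Ratios of TmelDnmt1 are given as measured and also relative to these medians. The RNA integrity number was 7.0 for FB and 6.5 for FLM, and its part in the results was not tested. FB and FLM came in 1 table and the 5-aza experiment in another, so FLM over untreated and FB over untreated set counts of 2 tables side by side. The comparisons also share libraries, FB and FLM being used in 2 each and untreated mycelium in 3.

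**Figure D1:**
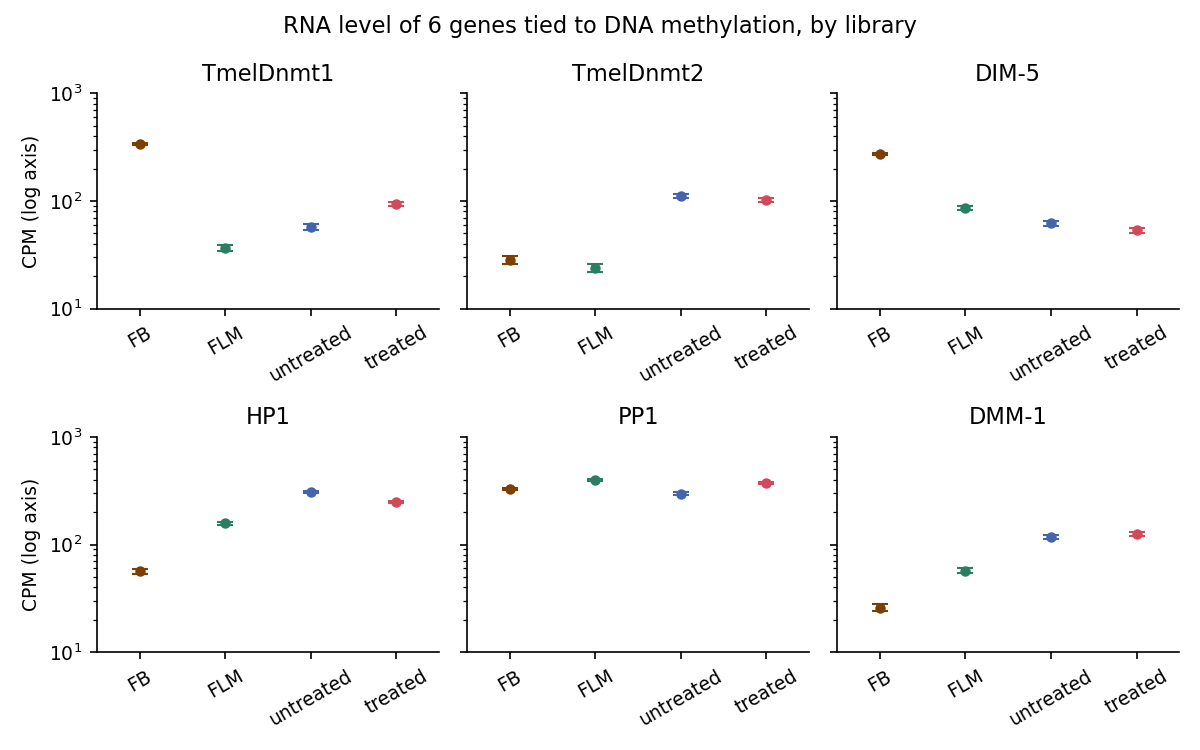
RNA level in CPM (log axis) of TmelDnmt1 and the other 5 genes tied to DNA methylation in each of the 4 RNA libraries. Points are single libraries and bars are 95% counting intervals, which are mostly smaller than the points. TmelDnmt1 is highest in FB (338 CPM), and which of FLM (36.4 CPM) and untreated mycelium (57.3 CPM) is lowest flips with TMM totals (51.6 and 47.0 CPM).

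The first comparison asks how the fruitbody differs from free-living mycelium. The log2 ratio of TmelDnmt1 for FB over FLM was 3.21 (3.11 to 3.32), and 471 of the 7228 genes with at least 10 reads in 1 of both libraries had a higher ratio. A change of 2-fold or more was common here, being met by 57.5% of the genes tested, 34.9% in the direction of FB. Relative to the median gene the ratio was 2.79. With size factors of DESeq2 the share of genes at least 2-fold higher in FB was 25.5% and that at least 2-fold lower 28.7%, against 22.6% lower with reads on genes.

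The second comparison asks what 5-aza did in liquid culture. The log2 ratio of TmelDnmt1 for treated over untreated was 0.71 (0.61 to 0.81), which is short of 2-fold. It was above the counting error, and 606 of 7192 genes had a higher ratio. In this pair 7.73% of the genes were past 2-fold, 4.92% being higher and 2.81% lower in treated mycelium. Relative to the median gene the ratio was 0.67. Without replicate cultures it was not possible to say whether a difference of this size lies within the variation between cultures.

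The remaining comparisons set both stages against the liquid culture without 5-aza. For FB over untreated the log2 ratio was 2.56 (2.47 to 2.65), with 454 of 7255 genes above it, while 51.4% of the genes were past 2-fold, 17.3% in the direction of FB. Relative to the median gene it was 2.97. For FLM over untreated the log2 ratio was -0.65 (-0.78 to -0.53), but relative to the median gene it was 0.17, so its direction flips with the scaling. In this pair 54.3% of the genes were past 2-fold, 10.7% higher and 43.6% lower in FLM, whereas DESeq2 size factors gave 21.7% higher and 18.8% lower. For FB over untreated these factors gave 24.2% of the genes higher and 25.8% lower, against 34.2% lower with reads on genes. No order of TmelDnmt1 between both mycelia without 5-aza is therefore read from these libraries.

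**Figure D2:**
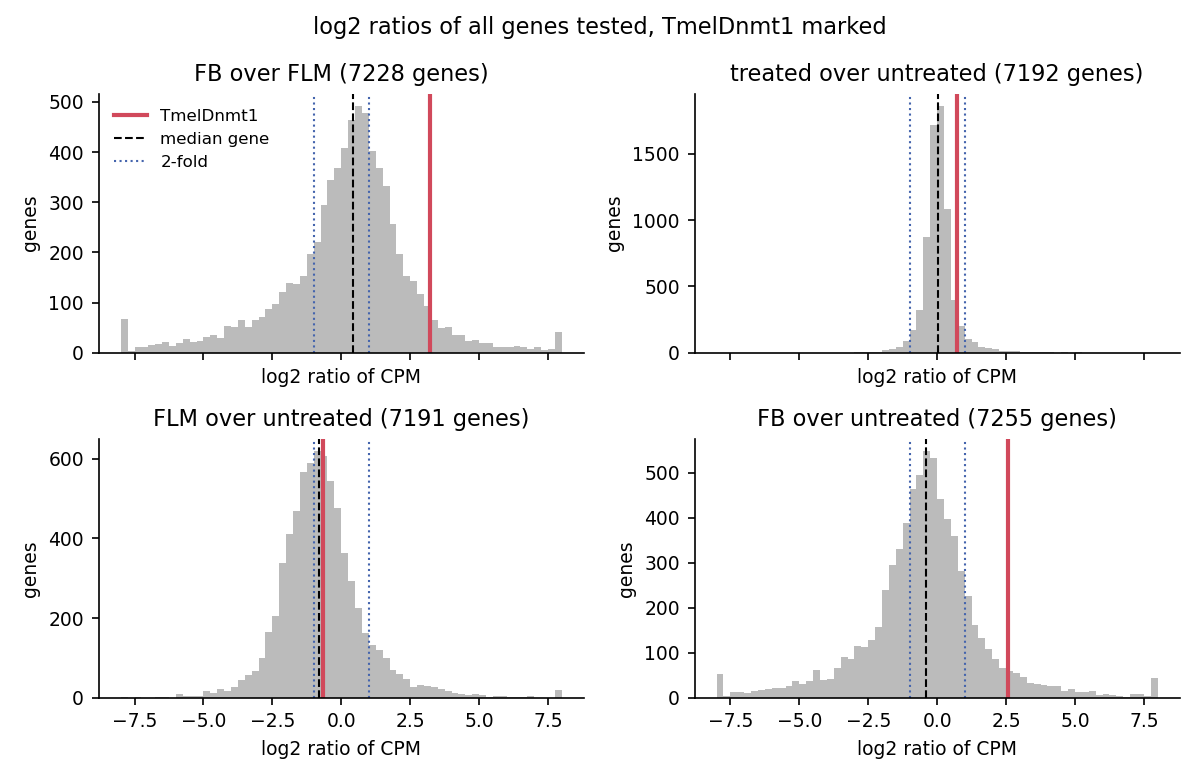
Histograms of the log2 ratio of CPM over all genes tested in each comparison, in bins of 0.25 and with values beyond 8 placed in the outermost bins. The solid red line is TmelDnmt1, the dashed line the median gene and the dotted lines mark 2-fold. TmelDnmt1 lies far in the upper tail where FB is compared (3.21 and 2.56), below the 2-fold line for 5-aza (0.71) and near the median gene for FLM over untreated.

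TmelDnmt2, the DIM-2-like DMT, had another profile. It had 661 reads in FB (28.3 CPM), 569 in FLM (23.9 CPM), 2490 in untreated (111 CPM) and 2209 in treated mycelium (101 CPM). It was thus high in both liquid cultures and low in FB and FLM. Its log2 ratio was 0.24 for FB over FLM, which flips to -0.19 relative to the median gene, -0.13 for treated over untreated, -2.21 for FLM over untreated and -1.97 for FB over untreated.

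The balance of both DMTs within a library does not depend on library totals. Per kb of gene length, as the table of FB and FLM gives it, the level of TmelDnmt1 was 10.4 times that of TmelDnmt2 in FB (9.60 to 11.3). It was 1.32 times in FLM (1.19 to 1.47), 0.81 times in treated (0.76 to 0.86) and 0.45 times in untreated mycelium (0.42 to 0.48). With these lengths TmelDnmt1 was the more abundant DMT transcript per length in FB and FLM, and TmelDnmt2 in both liquid cultures. The order in the liquid cultures depends on the lengths used. The authors' length-scaled values (RPKM) for these cultures rest on 85 bp for TmelDnmt1 and 293 bp for TmelDnmt2. They were 244 for TmelDnmt1 and 137 for TmelDnmt2 in untreated mycelium, and 397 and 124 in treated mycelium. TmelDnmt1 was thus the higher by RPKM, and no order of both DMTs within the liquid cultures is read. Between libraries, the ratio of TmelDnmt1 reads to TmelDnmt2 reads was 7.85-fold higher in FB than in FLM (6.86 to 8.98). It was 1.79-fold higher in treated than in untreated mycelium (1.64 to 1.96) and 2.95-fold higher in FLM than in untreated mycelium (2.60 to 3.35). For FB over untreated the factor was 23.1 (20.8 to 25.7).

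In *N. crassa*, methylation by DIM-2 is guided by the histone H3 lysine methyltransferase DIM-5 and by HP1, which binds the mark that DIM-5 sets, while PP1 is a phosphatase that removes a phosphate from histone H3 and DMM-1 limits the spreading of methylation. The truffle homologs of these 4 proteins and both DMTs form a list of 6 genes named by the study. For FB over FLM, 2 of the 6 were at least 2-fold higher (TmelDnmt1 and DIM-5) and 2 at least 2-fold lower (HP1 and DMM-1), beside 34.9% and 22.6% of all genes. The median log2 ratio of the list was -0.01 and that of all genes 0.43. With 5-aza none of the 6 was past 2-fold in either direction, beside 4.92% of all genes higher and 2.81% lower, and TmelDnmt1 had the largest log2 ratio of the list. The median was -0.02 for the list and 0.04 for all genes.

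The DIM-5 homolog (GSTUMT00003241001) came closest to TmelDnmt1 in the ratio of fruitbody to mycelium. It had 6452 reads in FB (276 CPM), 2071 in FLM (87.0 CPM), 1396 in untreated (62.2 CPM) and 1165 in treated mycelium (53.4 CPM). It was highest in FB, as TmelDnmt1 was, but lower, not higher, with 5-aza. Its log2 ratio was 1.66 for FB over FLM and -0.22 for treated over untreated, and that for FB over untreated was 2.15.

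The HP1 homolog (GSTUMT00000912001) went the other way. Its level was 56.3 CPM in FB, 158 CPM in FLM, 310 CPM in untreated and 248 CPM in treated mycelium. Its log2 ratio was -1.49 for FB over FLM and -2.46 for FB over untreated. The DMM-1 homolog (GSTUMT00000976001) was likewise lowest in FB, at 25.9 CPM, with 56.8 CPM in FLM, 117 CPM in untreated and 125 CPM in treated mycelium. Its log2 ratio was -1.13 for FB over FLM and 0.09 for treated over untreated.

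The PP1 homolog (GSTUMT00009673001) varied least over the list, between 298 CPM in untreated mycelium and 396 CPM in FLM, with 329 CPM in FB and 371 CPM in treated mycelium. For FB over untreated, 2 of the 6 genes were at least 2-fold higher (TmelDnmt1 and DIM-5) and 3 at least 2-fold lower (TmelDnmt2, HP1 and DMM-1), beside 17.3% and 34.2% of all genes. The median was -0.92 for the list and -0.41 for all genes. For FLM over untreated, 0 were higher and 2 lower (TmelDnmt2 and DMM-1), beside 10.7% and 43.6%, with a median of -0.81 for the list and -0.82 for all genes. The latter count depends on the scaling, since with TMM totals 2 of the 6 genes were at least 2-fold higher in FLM (DIM-5 and PP1) and 1 lower (TmelDnmt2), beside 20.7% and 20.0% of all genes with the same totals.

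How many genes had the order of TmelDnmt1 over the 4 libraries depends on the scaling. Of the 5820 genes with at least 100 reads in each library, 29.6% were highest in FB, 55.2% were lowest in FLM, and 793 (13.6%) had the same order of all 4 libraries. With TMM totals, under which TmelDnmt1 itself was lowest in untreated mycelium, 36.6% were highest in FB, 32.7% were lowest in FLM, 18.6% were lowest in untreated mycelium and 189 (3.25%) had its order. The 5 genes most like TmelDnmt1, by the largest difference of log2 CPM after each gene was centred on its mean of 4 libraries, were GSTUMT00006913001 (0.14), GSTUMT00006944001 (0.15), GSTUMT00000550001 (0.16), GSTUMT00011738001 (0.17) and GSTUMT00006093001 (0.22). The likeness rests on only 4 libraries, and 82 other genes came within 0.5 of TmelDnmt1 in each library. The closest, GSTUMT00006913001, had 151 CPM in FB, 17.4 CPM in FLM, 29.2 CPM in untreated and 39.8 CPM in treated mycelium. All 5 lie on other scaffolds than TmelDnmt1, and the tables used here give no function for them.

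**Figure D3:**
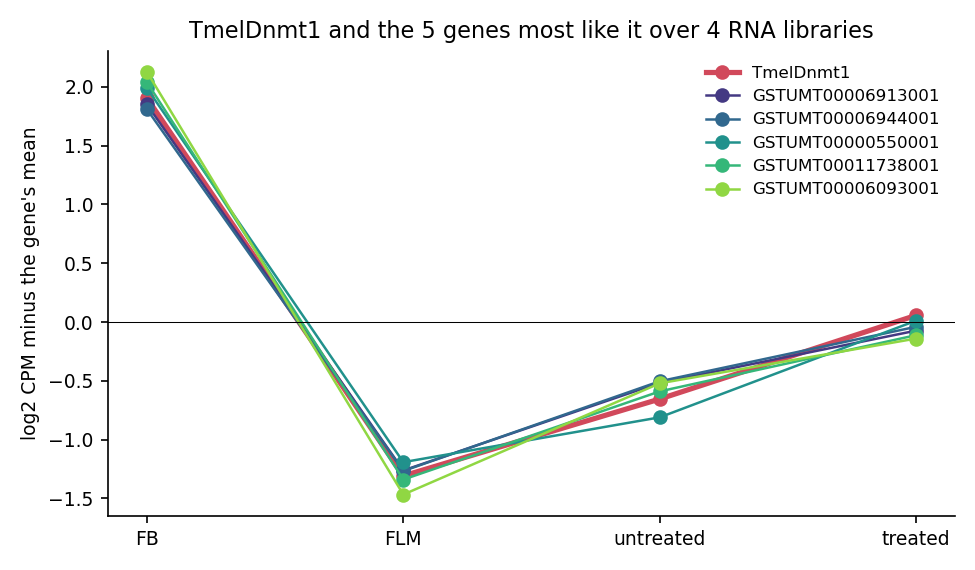
log2 CPM minus the gene's own mean of the 4 RNA libraries, for TmelDnmt1 (thick red line) and the 5 genes with the most similar pattern. Each point is 1 library. All 6 lines are highest in FB. They are lowest in FLM as plotted, but with TMM totals TmelDnmt1 and 4 of the 5 others are not, and each of the 5 differs from TmelDnmt1 by at most 0.22 in any library.

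TmelDnmt1 lies on scaffold 98 (416550 bp, with 54 genes) of the Mel28 assembly, at 284781 to 288960 by the RefSeq annotation (ASM15164v1), and spans 4180 bp. Which strand it is read from was not analysed here. GSTUMT00012205001, at 284023 to 284745, ends only 35 bp below it, and 6.41% of 7101 gaps between adjacent genes were as short. GSTUMT00012207001, at 290160 to 292879, starts 1199 bp above it. Exon and intron limits were not analysed here.

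The lower neighbour was also higher in FB, with 3009 reads in FB, 392 in FLM, 163 in untreated mycelium and 95 in treated mycelium. It shared the direction of TmelDnmt1 for FB over FLM, with a log2 ratio of 2.96, and differed with 5-aza, where its log2 ratio was -0.73. Whether reads were assigned by strand is not stated, and how far reads of these adjoining genes mix was not tested. The upper neighbour had 1481 reads in FB, 1713 in FLM, 2611 in untreated mycelium and 4056 in treated mycelium. Its log2 ratio was -0.18 for FB over FLM and 0.68 for treated over untreated, so it was alike to TmelDnmt1 in the 5-aza pair and not in the fruitbody.

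The gene itself was nearly free of methylation in all 5 bisulfite libraries. The methylation level is the share of reads that keep a C at a cytosine, averaged over cytosines with at least 4 reads (at least 1 in ECM). For CG sites in the gene body the level was 0.320% in FB (33 of 10789 reads methylated at 385 cytosines) and 0.368% in FLM (35 of 9804 at 386). It was 0.339% in untreated (10 of 3042 at 346) and 0.208% in treated mycelium (8 of 3513 at 373). In ECM it was 0.405%, from 2 of 325 reads at 206 cytosines. The median gene body had 0.485% in FB, 0.268% in FLM, 0.335% in untreated mycelium and 0.313% in treated mycelium, so TmelDnmt1 was on either side of the median. The pooled 95% intervals overlapped in FB (0.211 to 0.429%), FLM (0.249 to 0.496%), untreated (0.158 to 0.604%) and treated mycelium (0.098 to 0.448%), which is no test between conditions. How many of these reads kept a C through incomplete bisulfite conversion was not tested.

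The gene body was not thinly covered. Reads per cytosine were 0.97 times those of the median gene in FB, 0.96 in FLM, 0.95 in untreated mycelium and 0.96 in treated mycelium. The body holds 386 CG cytosines, or 9.23 per 100 bp, against 10.1 in the median gene body and 3.84 in the median classified repeat. CHG and CHH sites, where H is any base but G, were as low, with 0.426% and 0.475% in FB and 0.227% and 0.299% in FLM.

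Highly methylated DNA lay in and beside repeats on both sides of TmelDnmt1. The nearest classified repeat below it is a Tc1/Mariner element of 1827 bp, 1598 bp away, and the nearest above is a Gypsy element of 4704 bp, 7605 bp away. In all, 22.3% of the genes lie nearer to a classified repeat than TmelDnmt1 does, and the median distance was 5074 bp. The Tc1/Mariner element abuts a copy of the same Gypsy family as the upper element. None of these 3 repeats had an RNA read except the Tc1/Mariner element, with 1 read in untreated mycelium.

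Averaged over cytosines, CG sites of the Tc1/Mariner element had a level of 67.2% in FB, 61.9% in FLM, 64.8% in untreated mycelium and 69.6% in treated mycelium. Levels within the element were split, with an SD between cytosines of 42.4 points in FB, and the comparison of libraries depends on the averaging. With reads pooled the element had 43.9% in FB (40.7 to 47.1%), 36.9% in FLM (33.8 to 39.9%), 62.8% in untreated (55.7 to 69.5%) and 67.8% in treated mycelium (62.1 to 73.2%), so that FB and FLM stood below both liquid cultures. CG sites of the upper Gypsy element had 83.6% in FB, 84.5% in FLM, 89.0% in untreated mycelium and 83.7% in treated mycelium, and with reads pooled 84.4%, 85.1%, 90.0% and 83.5%. In ECM, with 22 and 27 CG cytosines covered, the levels were 22.7% and 75.9%. With either averaging both elements were more than 60% methylated in treated mycelium, while the gene between them was near 0% in every library. Repeats are covered by fewer reads and their copies can share reads, so these levels are less certain than those of the gene body. Per the study, bisulfite reads of FB and FLM were longer than those of the liquid cultures, and their DNA was extracted by another method. The part of either in the levels of repeats was not tested.

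In windows of 500 bp the change from methylated to unmethylated DNA fell at the same place in all mycelia. At -2500 to -2001 bp from the lower end of the gene the CG level was 95.7% in FB, 95.9% in FLM, 81.9% in untreated mycelium and 85.9% in treated mycelium. In the next window toward the gene, which holds the end of the Tc1/Mariner element, it was 1.08% in FLM, 0% in untreated and 0.910% in treated mycelium but 15.7% in FB. That FB value came from 75 methylated of 1306 reads at 40 cytosines, a pooled share of 5.74% (4.54 to 7.15%), against 13 of 1441 reads in FLM (0.902%, 0.481 to 1.54%). From there to the gene the windows reached at most 0.920% in FB and 0.360% in FLM. They reached at most 1.63% in untreated and 0.502% in treated mycelium and were at 0% in ECM. Within the methylated block, at -4500 to -4001 bp, FB had 67.7% where FLM had 32.2%, untreated 20.5% and treated mycelium 11.3%. At the far edge of the block, at -6000 to -5501 bp, FB had 10.3% and FLM 0.869%. FB was thus higher than the mycelia at each of these 3 windows. It was lower at -3000 to -2501 bp, with 77.1% (pooled 73.7%, 65.3 to 80.9%) against 88.3% in FLM, 100% in untreated and 96.0% in treated mycelium. These 4 windows were picked after their values were seen. On the upper side the window at 11180 to 11679 bp, which ends before the Gypsy element starts at 11785 bp, had 94.7% in FB, 92.7% in FLM and 87.1% in treated mycelium, each from 4 CG cytosines. The strain of FB is not stated, and its part in this was not tested.

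**Figure D4:**
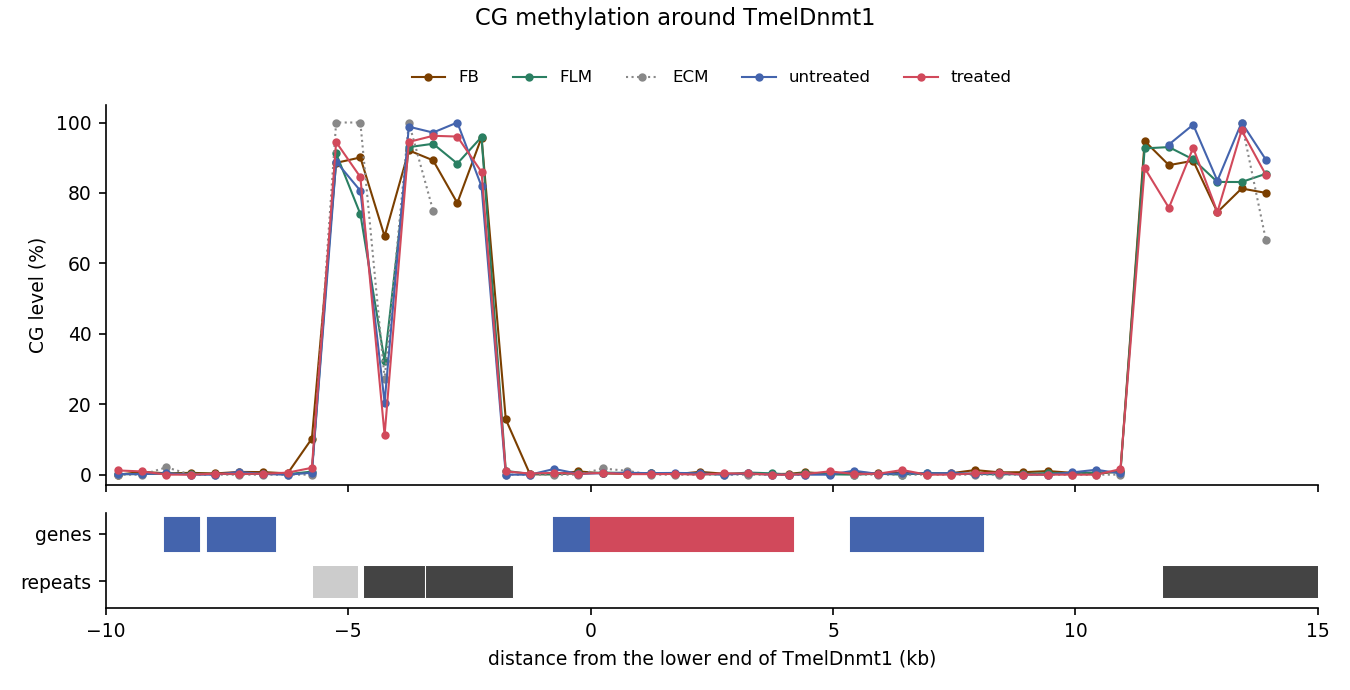
CG methylation level (%) in windows of 500 bp around TmelDnmt1 in the 5 bisulfite libraries, by distance in kb from its lower end. Below the plot, TmelDnmt1 is the red box, other genes are blue, classified repeats dark grey and an unclassified repeat light grey. The gene and its flanks stay near 0%, and CG levels above 60% are found only in the blocks in and beside the repeats, with a dip inside the lower block to 67.7% in FB and 32.2% in FLM.

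The methylation of repeats, which the DMTs of other ascomycetes target, was set beside the RNA of TmelDnmt1 in the same conditions. Over the 27168 classified repeats the CG level was 75.2% in FB, 75.6% in FLM, 78.5% in untreated mycelium and 78.2% in treated mycelium. With reads pooled it was 68.4%, 69.7%, 77.9% and 77.2% in this order, so FB and FLM lay further below the liquid cultures. Between FB and FLM, with 338 and 36.4 CPM of TmelDnmt1, the CG level was slightly higher in FLM with either averaging. It was 75.2% against 75.6% averaged over cytosines and 68.4% against 69.7% with reads pooled. No direction is read from this, since at cytosines covered in both libraries the mean was 0.05 points higher in FB. FB and FLM also differed from the liquid cultures in bisulfite read length and DNA extraction, whose part was not tested. The CHG level was 15.8% in FB, 14.2% in FLM, 17.4% in untreated mycelium and 14.4% in treated mycelium, and the CHH level was 17.9%, 17.3%, 20.2% and 17.0%. With 4 conditions no correlation between RNA and methylation was computed.

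At cytosines covered in both libraries of a pair, FB with its 9.28-fold higher TmelDnmt1 RNA was 0.05 points above FLM at CG sites of repeats, 1.50 points above at CHG sites and 0.30 points above at CHH sites. Treated mycelium, with 1.64-fold higher TmelDnmt1 RNA, differed from untreated mycelium by -0.14 points at CG sites, -3.05 points at CHG sites and -3.37 points at CHH sites. In genes FB was also above FLM, by 0.21 points at CG, 0.23 at CHG and 0.21 at CHH sites. The difference at CHH sites of repeats was near that in genes, and no direction is read from it. Genes of treated and untreated mycelium differed by -0.03 points at CG, -0.03 at CHG and -0.04 at CHH sites. TmelDnmt1 RNA and CHG methylation of repeats differed in the same direction between FB and FLM. Between FB and untreated mycelium they did not. There FB, with 5.90-fold higher TmelDnmt1 RNA, differed by -3.21 points at CG, -1.20 points at CHG and -2.28 points at CHH sites of repeats. That pair also differs in bisulfite read length and DNA extraction. Between treated and untreated mycelium, the RNA and the CHG and CHH methylation of repeats differed in opposite directions. Whether the RNA level of TmelDnmt1 has a part in these methylation levels was not tested.

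**Figure D5:**
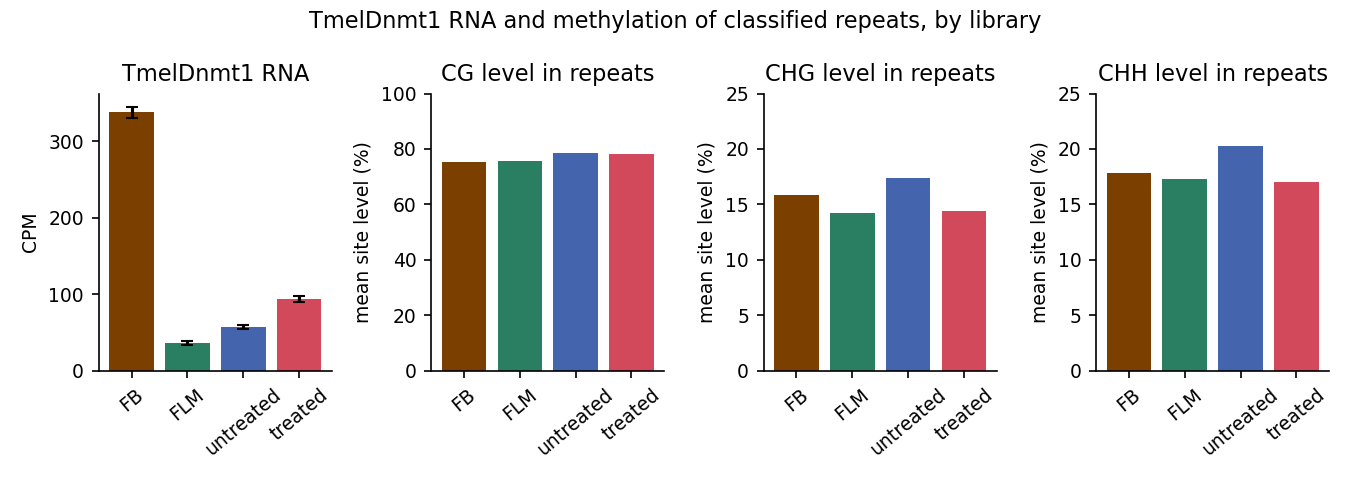
Left panel: TmelDnmt1 RNA in CPM in the 4 conditions with both assays, with 95% counting intervals. Other panels: mean methylation level (%) of CG, CHG and CHH cytosines in classified repeats of the same conditions, on an axis to 100% for CG and to 25% for CHG and CHH. RNA spans 36.4 to 338 CPM. The mean CG levels lie between 75.2% and 78.5%, and with reads pooled (not shown) between 68.4% and 77.9%.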

How the data were processed

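Per the study's methods and labels, the authors aligned RNA reads of 50 nt with TopHat (2.0.4) to transcripts of genes and repeats and deposited raw counts of uniquely aligned reads made with HTSeq (0.5.4p3). They also deposited RPKM values, made from these counts, a gene length and 1 read total per library. The length of TmelDnmt1 is 3702 bp in the table of FB and FLM and 85 bp in that of the 5-aza experiment. In all, 2.84% of the genes have the same length in both. RPKM was therefore used only to compute the authors' totals back and to show that the order of both DMTs in the liquid cultures depends on the lengths used. For methylation the authors' aligner was BS Seeker, its version not given in the sources used here, and the reference was the v1.0 assembly. They deposited for each cytosine the fraction of methylated reads beside both read counts.

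CPM used reads on genes as the total. Log2 ratios used 0.5 reads added to each count and genes with at least 10 reads in 1 of both libraries. Because each condition has 1 library, no test between conditions was made, no p-value is given and "past 2-fold" is a fixed fold. Read counts carry exact Poisson intervals, ratios exact conditional binomial intervals, the factor between ratios of both DMTs an exact conditional interval of the odds ratio, and pooled methylation exact binomial intervals. The Poisson intervals, the intervals of ratios between libraries and the 2-fold calls were tested on simulated read counts. The interval of the odds ratio and those of pooled methylation were not. The simulated counts followed the Poisson model that the intervals assume, and the changes put in were larger than 2-fold. They therefore check the computation only, not variation between libraries or smaller changes. Reads carry no molecular identifiers. Named genes are TmelDnmt1, the other 5 genes of the list, the 5 most alike genes, and the nearest gene and classified repeat on each side. TmelDnmt1, the list and these rules were chosen with earlier results of these data known. Cytosine positions of the first 3 bisulfite libraries count from 0 and were shifted by 1. RefSeq coordinates were matched for 7420 of the 7496 genes. Python 3.11.15, numpy 2.4.6, scipy 1.17.1, pandas 2.3.3, matplotlib 3.10.9, and, for scaling factors only, R 4.3.3 with edgeR 4.0.16 and DESeq2 1.42.0 were used. Mean reads per listed cytosine were 20.1 (FB), 19.9 (FLM), 1.35 (ECM), 7.35 (untreated mycelium) and 8.64 (treated mycelium).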

Additional observations from a re-analysis of the deposited data

How the results depend on the processing

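All 25 log2 ratios of TmelDnmt1 recomputed with other totals, 5 reads added per count or relative to the median gene kept their direction, except 3 for FLM over untreated, which were 0.14 with TMM totals, 0.18 with DESeq2 size factors and 0.17 relative to the median gene. FB over FLM stayed past 2-fold, at 2.92 with reads on genes and repeats, 2.97 with the authors' totals, 3.41 with these totals exchanged between FB and FLM (the methods give them in that order), 2.83 with TMM, 2.79 with DESeq2 factors and 2.79 relative to the median gene. FB over untreated was 2.29, 2.36, 2.96, 2.97 and 2.97 with reads on genes and repeats, the authors' totals, TMM, DESeq2 factors and relative to the median gene. Treated over untreated stayed between 0.64 and 0.73, short of 2-fold. The level moved to 366, 51.6, 47.0 and 74.6 CPM with TMM, and to 368, 53.2, 46.8 and 73.1 CPM with DESeq2 factors, in FB, FLM, untreated and treated mycelium, and to 267 CPM in FB with repeats counted in the total. Per kb the rank became 1301, 5270, 5661 and 4914. The levels under other totals, the ratios relative to the median gene, the list counts and the order of libraries under other totals were chosen after seeing the data. Of the 6 genes of the list, TMM and DESeq2 factors each put 2 genes higher and 1 lower for FLM over untreated, beside 20.7% and 20.0% of all genes with TMM and 21.7% and 18.8% with DESeq2 factors, and the authors' totals put 1 lower, beside 42.1%. The 793 genes with the order of TmelDnmt1 became 189 with TMM, 168 with DESeq2 factors, 586 with reads on genes and repeats and 625 with the authors' totals.

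The 16 recomputed counts of genes past 2-fold stayed within 1.5 times, the 13 gene body levels within their intervals, and 4 and 5 of the 5 most alike genes were shared with the Euclidean distance and with DESeq2 factors. With at least 10 reads per cytosine, levels in repeats in FB, FLM, untreated and treated mycelium were 71.7, 72.5, 76.9 and 75.3% (CG), 16.1, 14.3, 17.5 and 14.2% (CHG) and 18.0, 17.4, 19.4 and 16.3% (CHH). With at least 1 read they were 75.8, 76.1, 79.0 and 78.8%, 15.7, 14.1, 17.5 and 14.5%, and 17.7, 17.2, 20.5 and 17.2%. With reads pooled they were 68.4, 69.7, 77.9 and 77.2%, 15.7, 13.9, 17.5 and 14.4%, and 17.7, 17.0, 20.0 and 16.8%. No paired analysis was possible because each condition has 1 library. Depth limits the ECM values most, at a mean of 1.35 reads per listed cytosine, and leaving out a replicate was not possible.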
